A study of Mus musculus with 6 samples.

Results

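The genes described here are 43 p53 targets and intrinsic apoptosis genes in differentiating mouse embryoid bodies (EBs). They were chosen by name from the p53 pathway and the BCL2 family, and the choice was made with the differences between Tnfaip2-/- and WT EBs in these same 6 samples already known. Their differences between genotypes are therefore a description without a test. The 43 genes stand among 52636 genes of the count table, and 42 of them were among the 17849 genes with enough counts to be tested. Of the 43, 33 belong to lists of p53 feedback, arrest, death and repair genes, p53 itself included, and are called p53-driven members for short, although p53 control in mouse cells is less sure for some of them, such as Ddb2 and Ccng2. The other 10 are BCL2 family and caspase genes outside those lists. Whether p53 controls any of these 10 in mouse cells was not tested.

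RNA sequencing compared Tnfaip2-/- EBs with WT EBs, 3 samples per genotype, on day 3 of differentiation. EBs are balls of embryonic stem (ES) cells grown in hanging drops, here transferred to gelatin-coated dishes in medium without leukemia inhibitory factor to start differentiation. WT EBs came from the parental mouse ES line E14, and Tnfaip2-/- EBs from a single CRISPR-Cas9 clone of it with a premature stop codon in the second exon of Tnfaip2. The question was which genes differ when EBs without Tnfaip2, a TNF-induced gene related to the exocyst subunit Exoc3, are made to differentiate. One clone against its parental line cannot separate the effect of the edit from other differences of that clone. The labels do not say that the 3 samples of a genotype were separate cultures, although the methods call them biological replicates, so p-values measure the spread between these samples. The WT samples held 22987433, 22489903 and 23804489 counts, and the Tnfaip2-/- samples held 22480962, 21765931 and 21986960.

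The edited gene was low in every sample. With 7, 4 and 7 counts in WT EBs and 0, 2 and 2 in Tnfaip2-/- EBs, Tnfaip2 was removed by the filter on low counts, and without that filter its adjusted p was 0.0133 in edgeR's quasi-likelihood test with Benjamini-Hochberg adjustment. Summed over samples and corrected for depth, WT EBs had 4.39 times the counts of Tnfaip2-/- EBs (95% exact interval 1.44 to 17.8, counting error only). A transcript with a premature stop can still be counted, so this value is only a partial check of the genotype labels.

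The transcription factor p53, encoded by Trp53, is held low by the ubiquitin ligase MDM2 and its partner MDM4 until DNA damage or stress releases it to activate genes of arrest, repair and death, and Mdm2 itself as feedback. Intrinsic apoptosis is decided at the mitochondrion, where BH3-only proteins neutralize the anti-apoptotic proteins BCL2, BCL-XL and MCL1 and free the effectors BAX and BAK. Mouse ES cells keep abundant p53 protein, and p53 can lower pluripotency genes such as Nanog in them.

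Across the 42 tested members, 28 had higher and 8 had lower expression in Tnfaip2-/- EBs at an adjusted p below 0.05, and 6 did not pass, whereas DESeq2 called 5 lower. These numbers stand beside a background in which 67.7% of all tested genes passed, 34% with higher and 33.7% with lower expression, and nothing is read from the members' counts, since the members were chosen with this contrast known. Against a fold change of 1.5, 16 members were called higher and 1 was called lower, beside 9.05% and 6.63% of all tested genes. The samples of the genotypes did not overlap for 28 members that were higher and 9 that were lower in Tnfaip2-/- EBs, beside 69.4% of all tested genes without overlap in either direction. The median log2 fold change was 0.47 over the 42 members and 0.00 over all tested genes.

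The p53-driven members and the BCL2 family and caspase members are given side by side, again as a description beside the 34% of all tested genes called higher and 33.7% called lower. Of 32 tested p53-driven members, 25 were higher, 4 were lower and 3 did not pass, with a median log2 fold change of 0.55 and a range from -0.52 to 3.39. Of the 10 BCL2 family and caspase members, 3 were higher, 4 were lower and 3 did not pass, with a median of -0.07 and a range from -0.76 to 1.60. Expression is given as CPM, the counts scaled to a fixed library total, and the p53-driven members summed to 1994, 1985 and 1968 CPM in WT EBs and to 3161, 3162 and 3168 CPM in Tnfaip2-/- EBs. The 10 BCL2 family and caspase members summed to 792.7, 797 and 809.9 in WT EBs and to 780, 773.2 and 768.7 in Tnfaip2-/- EBs. All 3 Tnfaip2-/- samples thus lay well above the WT samples for the first sum and slightly below them for the second. In these bulk samples a difference in the number of cells of a type and a difference in RNA per cell cannot be told apart.

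**Figure D1:**
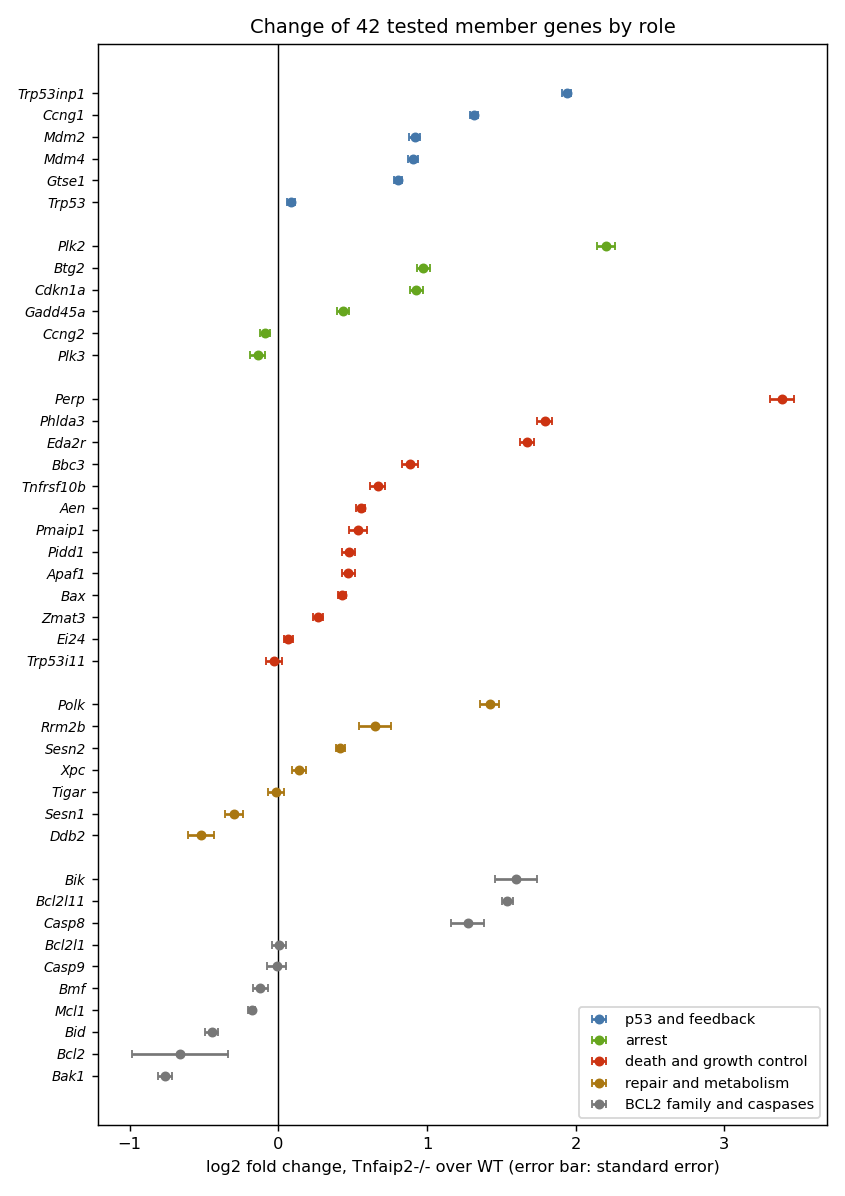
Log2 fold change (Tnfaip2-/- over WT) of the 42 tested members, grouped by role, with the standard error of each estimate as a bar (3 samples per genotype). Most p53-driven genes lie to the right of 0, with Perp farthest at 3.39, whereas the BCL2 family and caspase genes lie on both sides, from Bak1 at -0.76 to Bik at 1.60.

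Among the feedback genes, Trp53 itself (chr11:69580359-69591873, GRCm38, plus strand) was abundant. Its expression was 372, 369 and 356 CPM in WT EBs and 368, 402 and 396 CPM in Tnfaip2-/- EBs. One Tnfaip2-/- sample lay inside the WT range, so the genotypes overlapped, and the log2 fold change was 0.09 (SE 0.0274). In total 3.8% of the 51-base windows of its exons also occur in other genes, mainly the pseudogene Trp53-ps. The call of Trp53 was lost without WT sample 3, Tnfaip2-/- sample 2 or Tnfaip2-/- sample 3, and without the filter on low counts.

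Mdm2, the ligase that marks p53 for degradation, was at 65.1, 64 and 64.8 CPM in WT EBs and at 125, 116 and 125 CPM in Tnfaip2-/- EBs. The genotypes were well apart, with a log2 fold change of 0.92 (SE 0.0347). Its partner Mdm4, which covers the activation domain of p53, was at 101, 99.9 and 95.2 CPM in WT EBs and at 190, 181 and 184 CPM in Tnfaip2-/- EBs. Every Tnfaip2-/- sample of Mdm4 was above every WT sample, with a log2 fold change of 0.91 (SE 0.0308), and 7.1% of its windows are shared with other genes, mainly a pseudogene. Taken per exon length, as RPKM (CPM per kilobase of exon), the ratio of Mdm2 to Trp53 was 0.139, 0.138 and 0.145 in WT EBs and 0.269, 0.231 and 0.251 in Tnfaip2-/- EBs. The ratio was higher in each Tnfaip2-/- sample, by more than the spread within either genotype.

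Trp53inp1, a stress-induced nuclear protein that promotes phosphorylation of p53, was at 95.1, 102 and 94.9 CPM in WT EBs and at 385, 365 and 372 CPM in Tnfaip2-/- EBs. Its fold change of 3.84 (log2 1.94, SE 0.0301) was the largest of the feedback genes. Ccng1, which encodes cyclin G1 and acts on MDM2 through a phosphatase, was at 110, 111 and 110 CPM in WT EBs and at 281, 272 and 273 CPM in Tnfaip2-/- EBs. The WT samples of Ccng1 differed by about 1 CPM, and the Tnfaip2-/- samples were 2.49-fold higher (log2 1.32, SE 0.0281). Gtse1, whose product moves p53 out of the nucleus in G2, was at 124, 121 and 124 CPM in WT EBs and at 218, 215 and 212 CPM in Tnfaip2-/- EBs, again with no overlap (log2 fold change 0.81, SE 0.0283). All 6 feedback genes were called higher in Tnfaip2-/- EBs (median log2 value 0.91), beside 34% of all tested genes. Against the fold of 1.5, 5 of them were called higher, all but Trp53, beside 9.05% of all tested genes.

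**Figure D2:**
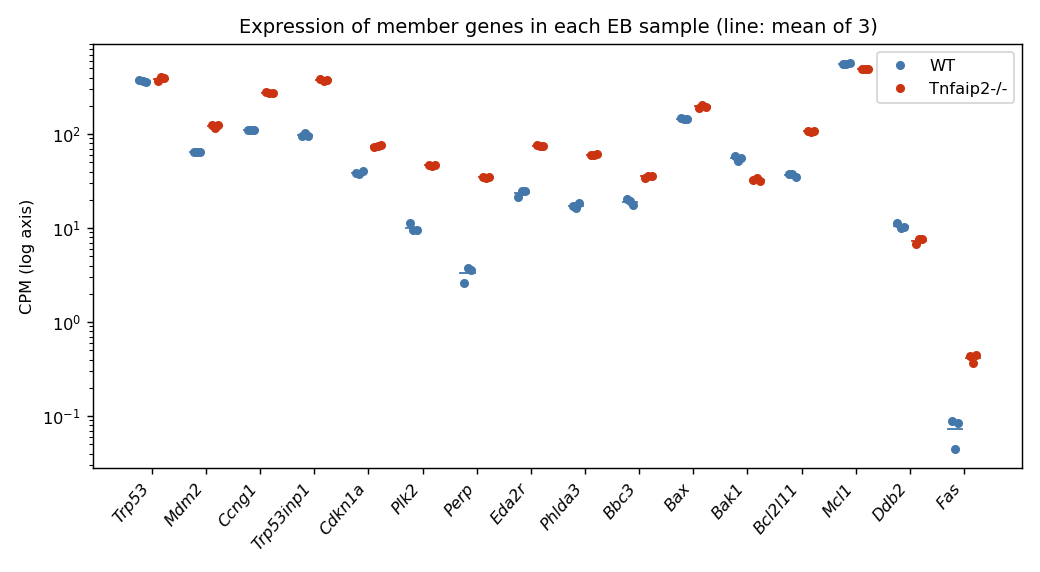
Expression (CPM, log axis) of 16 members in each sample, WT in blue and Tnfaip2-/- in red, with the mean of the 3 samples as a line. The 3 samples of a genotype lie close together for most genes, Perp is near 3 CPM in WT EBs and near 35 CPM in Tnfaip2-/- EBs, Trp53 overlaps between genotypes, and Bak1, Mcl1 and Ddb2 are lower in Tnfaip2-/- EBs.

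Among the arrest genes, Cdkn1a (chr17:29090976-29100727, plus strand) encodes p21, the inhibitor of cyclin-dependent kinases through which p53 stops cells in G1. It was at 38.4, 37.8 and 40.8 CPM in WT EBs and at 72.6, 74.3 and 76.1 CPM in Tnfaip2-/- EBs. The Tnfaip2-/- samples were all higher, 1.9-fold on average (log2 0.93, SE 0.0408), and a gene on the opposite strand overlaps 7.7% of its exon bases. The polo-like kinase gene Plk2 (chr13:110395046-110400844, plus strand), which acts in centriole duplication and after DNA damage, was at 11.3, 9.51 and 9.53 CPM in WT EBs and at 47.3, 45.9 and 46.8 CPM in Tnfaip2-/- EBs. With a fold change of 4.61 (log2 2.20, SE 0.06), it differed most among the arrest genes. Btg2, an antiproliferative factor that promotes mRNA deadenylation, was at 32.7, 36.6 and 34.9 CPM in WT EBs and at 70.7, 66.7 and 67.4 CPM in Tnfaip2-/- EBs. Here, too, the genotypes did not overlap (log2 fold change 0.98, SE 0.0434).

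The other arrest genes differed less. Gadd45a, a stress sensor that inhibits CDK1, had a mean of 45.3 ± 1.34 CPM in WT EBs and 61.4 ± 1.79 CPM in Tnfaip2-/- EBs (SD, n = 3), which is 0.44 on the log2 scale. Of its exon bases, 19.1% are overlapped by a gene on the opposite strand, from which the library kit, which does not keep strand, could not separate its reads. Plk3, a related stress kinase, was slightly lower in Tnfaip2-/- EBs, with 33.9 ± 1.27 CPM in WT EBs and 30.8 ± 0.402 CPM in Tnfaip2-/- EBs. Ccng2, which encodes cyclin G2 and is mainly driven by FOXO factors, was at 82.2 ± 0.578 and 77.2 ± 2.34 CPM. For Plk3 and Ccng2 the log2 fold changes were -0.14 and -0.09, and both calls were lost with DESeq2, that of Plk3 also without WT sample 2 and that of Ccng2 also without Tnfaip2-/- sample 3 or with upper-quartile normalization. Of the 6 arrest genes, 4 were called higher and 2 lower, beside 34% and 33.7% of all tested genes. Their median log2 fold change was 0.68.

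The death genes held the largest difference of all members. Perp (chr10:18845020-18857073, plus strand), a tetraspan membrane protein of desmosomes that p53 induces during apoptosis, was at 2.6, 3.75 and 3.58 CPM in WT EBs and at 34.7, 34.3 and 35.1 CPM in Tnfaip2-/- EBs. It was low in all 3 WT samples and 10.5-fold higher in Tnfaip2-/- EBs (log2 3.39, SE 0.0827). Phlda3, a pleckstrin homology protein that keeps AKT from the membrane, was at 17.2, 16.3 and 18.7 CPM in WT EBs and at 59.7, 59.3 and 62.2 CPM in Tnfaip2-/- EBs. The difference was 3.46-fold, with no overlap (log2 1.79, SE 0.0506). Eda2r, the X-linked receptor for ectodysplasin A2, was at 21.7, 24.6 and 24.8 CPM in WT EBs and at 75.8, 75.6 and 75.2 CPM in Tnfaip2-/- EBs. Its Tnfaip2-/- samples differed by less than 1 CPM and lay 3.19-fold above WT EBs (log2 1.67, SE 0.0456).

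Genes of the mitochondrial death machinery that p53 drives differed more moderately. Bbc3, which encodes the BH3-only protein PUMA, was at 20.4, 19.5 and 17.6 CPM in WT EBs and at 34.3, 36.1 and 35.9 CPM in Tnfaip2-/- EBs. The genotypes were apart, with a log2 fold change of 0.89 (SE 0.0556). Pmaip1, which encodes the BH3-only protein NOXA, was at 16.3, 16.3 and 16.7 CPM in WT EBs and at 22.8, 24.9 and 23.9 CPM in Tnfaip2-/- EBs. Each Tnfaip2-/- sample was higher, with a log2 fold change of 0.54 (SE 0.0602). The effector Bax (chr7:45461697-45466898, minus strand) was at 149, 144 and 146 CPM in WT EBs and at 191, 206 and 194 CPM in Tnfaip2-/- EBs. Its log2 fold change was 0.43 (SE 0.0295), which is below the fold of 1.5, and a gene on the same strand overlaps 12.2% of its exon bases. Apaf1, the scaffold of the apoptosome that activates caspase 9, had a log2 fold change of 0.47 (SE 0.0443), from 38.1 ± 2.01 to 52.9 ± 1.32 CPM. Pidd1, the scaffold that activates caspase 2, had the same log2 fold change of 0.47 (SE 0.0431), from 37.7 ± 1.32 to 52.4 ± 0.852 CPM.

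The remaining death genes ranged from little difference to a moderate one. Tnfrsf10b, the mouse receptor for the death ligand TRAIL, averaged 24.1 ± 0.755 CPM in WT EBs and 38.2 ± 0.442 CPM in Tnfaip2-/- EBs (log2 difference 0.67). The nuclease gene Aen averaged 107 ± 1.28 and 157 ± 2.28 CPM (log2 difference 0.55). Zmat3, an RNA-binding splicing regulator, differed less, with 104 ± 1.7 CPM in WT EBs and 125 ± 0.786 CPM in Tnfaip2-/- EBs. Ei24, which encodes a membrane protein of the endoplasmic reticulum, was at 107 ± 3.59 and 112 ± 1.7 CPM and did not pass (log2 0.07, SE 0.0322), although it was called with upper-quartile normalization or a stricter filter. Trp53i11 was at 27.3 ± 1.41 and 26.7 ± 1.16 CPM and did not pass either, with overlapping genotypes. Of the 13 tested death genes, 11 were called higher, beside 34% of all tested genes, with a median log2 fold change of 0.54.

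Fas, the gene of the death receptor CD95, was the only member removed by the filter on low counts. WT EBs had 2, 1 and 2 counts of it and Tnfaip2-/- EBs had 10, 8 and 10. Each Tnfaip2-/- sample had more counts than any WT sample, but all 6 libraries were near the detection limit, and without the filter Fas was called higher as well. Corrected for depth, the ratio of summed counts was 5.75 (95% exact interval 2.19 to 19.1, counting error only).

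The repair and metabolism genes were mixed. Polk, a translesion DNA polymerase, was at 12.2, 12.3 and 10.7 CPM in WT EBs and at 32.3, 29.5 and 32.6 CPM in Tnfaip2-/- EBs. It was the only gene of this role called against the fold of 1.5, with a log2 fold change of 1.42 (SE 0.0638). Rrm2b, the p53-induced subunit of ribonucleotide reductase, was at 4.19, 4.87 and 4.43 CPM in WT EBs and at 6.87, 7.03 and 7.26 CPM in Tnfaip2-/- EBs, without overlap (log2 fold change 0.65, SE 0.106), and 10.6% of its 51-base windows are shared with other genes. Sesn2, a stress protein that restrains mTORC1, averaged 91.7 ± 1.45 and 122 ± 4 CPM (log2 difference 0.42). Its relative Sesn1 lay in the opposite direction, at 24, 24.8 and 24.4 CPM in WT EBs and 18, 20.6 and 21 CPM in Tnfaip2-/- EBs (log2 -0.30, SE 0.0597). The damage recognition gene Xpc differed little (log2 0.14, SE 0.0472), and this call was lost with DESeq2 and without WT sample 1 or Tnfaip2-/- sample 3.

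Ddb2, which recognizes ultraviolet lesions and is a well-known p53 target in human but not in mouse cells, was at 11.3, 10 and 10.3 CPM in WT EBs and at 6.78, 7.62 and 7.62 CPM in Tnfaip2-/- EBs. All 3 Tnfaip2-/- samples were lower (log2 -0.52, SE 0.088), the most negative value among the p53-driven lists. A gene on the opposite strand overlaps 23.8% of its exon bases. The sources used here do not say whether reads from this part were counted or dropped. Tigar, a phosphatase that lowers glycolysis, was at 30.3 ± 1.33 and 30 ± 1.67 CPM and did not pass. Over the 7 repair and metabolism genes, 4 were called higher and 2 lower, beside 34% and 33.7% of all tested genes. Their median log2 fold change was 0.14.

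The BCL2 family and caspase members outside the p53-driven lists moved in both directions. The anti-apoptotic gene Mcl1, whose loss is lethal around implantation, was at 551, 562 and 567 CPM in WT EBs and at 498, 493 and 494 CPM in Tnfaip2-/- EBs. It was lower in each Tnfaip2-/- sample, with a small log2 fold change of -0.18 (SE 0.0236). Bcl2l1, which encodes BCL-XL, was at 34.3, 34.7 and 37.5 CPM in WT EBs and at 36.7, 36.5 and 33.9 CPM in Tnfaip2-/- EBs. Its genotypes overlapped, with a log2 fold change of 0.00 (SE 0.0488). Bcl2 itself was close to the limit of detection, at 19, 17 and 13 counts in WT EBs and 9, 11 and 10 counts in Tnfaip2-/- EBs, and did not pass (log2 -0.66, SE 0.323). Without WT sample 3 it was called, with a log2 fold change of -0.83.

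The effector Bak1 (chr17:27019810-27029009, minus strand) was at 58.6, 51.3 and 55.9 CPM in WT EBs and at 32.2, 33.8 and 31.7 CPM in Tnfaip2-/- EBs. It was 1.7-fold lower in Tnfaip2-/- EBs (log2 -0.76, SE 0.0474), the only member called lower against the fold of 1.5. Of its exon bases, 25.5% are overlapped by Ggnbp1 on the opposite strand. Per exon length, Bax exceeded Bak1 by a ratio of 3.89, 4.29 and 3.99 in the WT samples and 9.07, 9.3 and 9.36 in the Tnfaip2-/- samples. Thus the proportion of the effector transcripts differed between genotypes in every sample.

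Among the BH3-only genes of this group, Bcl2l11, which encodes BIM, was at 37.9, 37.2 and 35.1 CPM in WT EBs and at 107, 106 and 107 CPM in Tnfaip2-/- EBs. The samples were 2.91-fold apart, with a log2 fold change of 1.54 (SE 0.0383). Bik was scarce, at 1.54, 2.28 and 2.17 CPM in WT EBs and 5.37, 6.35 and 6.54 CPM in Tnfaip2-/- EBs, and had a log2 fold change of 1.60 (SE 0.141). Bid, which links caspase 8 to mitochondria, was lower, at 50.7, 52.2 and 54.5 CPM in WT EBs and 39.2, 36.8 and 39.3 CPM in Tnfaip2-/- EBs (log2 -0.45, SE 0.0438), and 17.7% of its exon bases are overlapped by Bcl2l13. Bmf, which is released from the cytoskeleton when cells detach, was at 32.9 ± 1.05 and 30.2 ± 1.28 CPM, a log2 fold change of -0.12. Bmf was no longer called with DESeq2, with upper-quartile normalization, or without WT sample 3 or Tnfaip2-/- sample 3.

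The initiator caspases differed from each other. Casp8, which acts below death receptors, was at 2.96, 3.35 and 3.53 CPM in WT EBs and at 7.79, 7.99 and 8.07 CPM in Tnfaip2-/- EBs. All Tnfaip2-/- samples were higher, with a log2 fold change of 1.27 (SE 0.111). Casp9, which acts in the apoptosome, was at 21.5, 21.3 and 20.2 CPM in WT EBs and at 22.7, 21.2 and 18.5 CPM in Tnfaip2-/- EBs. Its genotypes overlapped, with a log2 fold change of -0.01 (SE 0.0636).

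Levels per exon length allow the members of the BCL2 family to be added by role. The 3 anti-apoptotic genes Mcl1, Bcl2l1 and Bcl2 summed to 172 ± 2.6 RPKM in WT EBs and 153 ± 0.884 RPKM in Tnfaip2-/- EBs (SD, n = 3). Most of this sum was Mcl1, at 164 RPKM in WT EBs and 145 RPKM in Tnfaip2-/- EBs. The 6 BH3-only genes, Bbc3 and Pmaip1 included, summed to 41.8, 42 and 41.9 RPKM in WT EBs and 58.1, 59.6 and 59.7 RPKM in Tnfaip2-/- EBs. This sum was higher in each Tnfaip2-/- sample, as was the sum of the effectors Bax and Bak1, at 116 ± 3.16 RPKM in WT EBs and 139 ± 5.25 RPKM in Tnfaip2-/- EBs. The ratio of BH3-only to anti-apoptotic transcripts was 0.244 ± 0.00345 in WT EBs and 0.388 ± 0.00812 in Tnfaip2-/- EBs. These are levels of RNA, and protein was not measured in these samples.

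**Figure D3:**
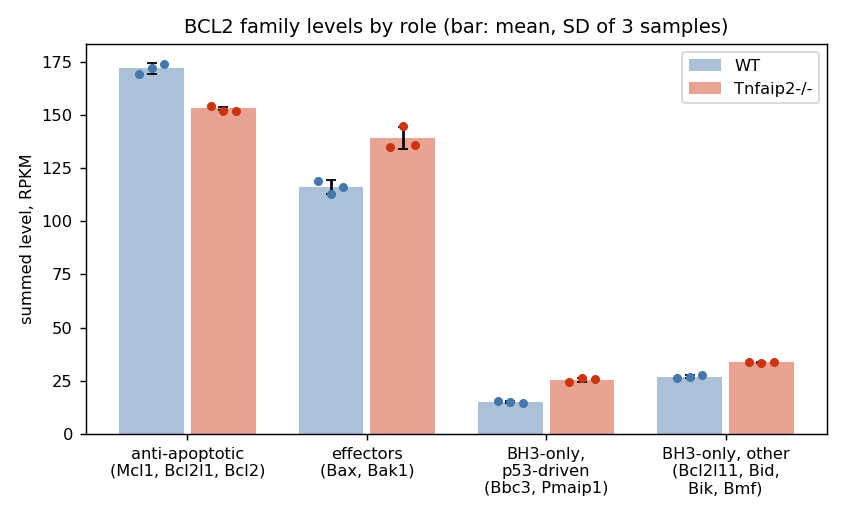
Summed level (RPKM) of BCL2 family members by role in WT (blue) and Tnfaip2-/- (red) EBs, with bars for the mean, error bars for the SD of 3 samples and points for single samples. The anti-apoptotic sum is lower in Tnfaip2-/- EBs (172 and 153 RPKM), and the effector sum and both BH3-only sums are higher.

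Per exon length, the order of the members was led by the same genes in both genotypes. Mcl1, Bax, Trp53, Gtse1 and Ccng1 held ranks 1 to 5 in WT EBs and in Tnfaip2-/- EBs, with Bax at 92.9 and 125 RPKM and Trp53 at 90.5 and 96.1 RPKM. Bax and Trp53 were close to each other in WT EBs and apart in Tnfaip2-/- EBs, while Gtse1 and Ccng1 were both at 78.4 RPKM in Tnfaip2-/- EBs. Below them the order shifted. Perp moved from rank 38 of 43 at 1.7 RPKM to rank 15 at 17.8 RPKM. Phlda3 moved from rank 17 at 11.2 RPKM to rank 7 at 38.7 RPKM, and Bak1 went down from rank 8 at 23 RPKM to rank 18 at 13.5 RPKM. Bcl2 and Fas held the last ranks, at 0.0783 and 0.0352 RPKM in WT EBs and 0.0491 and 0.203 RPKM in Tnfaip2-/- EBs.

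The members varied little within a genotype. The median coefficient of variation over the 42 tested members was 3.66% in WT EBs and 2.79% in Tnfaip2-/- EBs, beside 5.09% and 5.12% over all tested genes, which include many genes with fewer counts. For the 32 p53-driven members, the median difference from the WT mean, on the scale of log2(CPM + 0.5), was 0.53, 0.58 and 0.53 in the 3 Tnfaip2-/- samples, so no single sample carried it. By role, the feedback genes were at 0.94, 0.86 and 0.92 in these samples and the repair genes at 0.15, 0.10 and 0.16. The BCL2 family and caspase genes were at -0.03, -0.03 and -0.18, where Tnfaip2-/- sample 3 stood apart from the other two. Besides Mdm4 and Rrm2b, Tnfrsf10b (6%), Ei24 (6.3%) and Bcl2 (5.2%) have more than 5% of their 51-base windows in other genes. The same holds for genes named above for exon overlap, namely Ddb2 (17.7%), Bak1 (16.9%), Bid (16.3%), Gadd45a (15.5%), Cdkn1a (8.4%) and Bax (8.4%).

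Matches to the p53 consensus were counted in the promoter sequence of the members, which was not used to choose them. Many members were chosen by name as p53 targets, however, and known p53 sites may be part of that status. Their share of matches is therefore not independent of the choice. The p53 consensus consists of a pair of adjoining 10-base half-sites, and matches were counted on both strands in the 300 bases from 250 before to 50 after each RefSeq gene start (GRCm38.p6). Of the 43 members, 34 had such a window, with 1.38 windows per member and 1.28 per tested gene. A half-site without mismatch was present in 12 of 34 members (35.3%) and in 916 of 11143 tested genes with a window (8.22%). It was present in 11 of 25 p53-driven members (44%) and in 1 of 9 BCL2 family and caspase members (11.1%), namely Bmf. In the other p53 targets outside the members it was present in 7 of 72 genes (9.72%), close to the share of all tested genes. A full site of 20 bases with at most 2 mismatches and the central C and G of each half-site intact was present in 3 members (8.82%), 3 other p53 targets (4.17%) and 48 tested genes (0.431%). A match is a description of the letters in this window and does not show that p53 binds there.

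The 3 members with a full site, Cdkn1a, Ccng1 and Gtse1, each had 1 mismatch, and 7 of all 11143 genes (0.0628%) had a full site with at most 1. Their sites are shown because these genes differed between the genotypes by 0.93, 1.32 and 0.81 on the log2 scale, and capitals mark the bases that match the consensus. The Cdkn1a site lies at chr17:29090928-29090947 on the plus strand and begins 51 bases before a RefSeq start of the gene. The Ccng1 site lies at chr11:40755462-40755481 on the minus strand, 195 bases before such a start. The Gtse1 site lies at chr15:85859945-85859964 on the plus strand, across such a start. A gene can have several RefSeq starts, and which of them these EBs use was not tested.
Cdkn1a site: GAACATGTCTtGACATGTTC
Ccng1 site: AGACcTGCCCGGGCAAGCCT
Gtse1 site: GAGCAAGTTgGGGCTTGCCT
With up to 3 mismatches, a setting added after the data were seen, 5 more members had a full site, all of them in the p53-driven lists, so that the share was 23.5% of members, 6.94% of other p53 targets and 1.79% of tested genes. The sites of Bbc3 (chr7:16309486-16309505, plus strand), Aen (chr7:78895937-78895956, plus strand), Trp53 (chr11:69580284-69580303, plus strand), Sesn1 (chr10:41887266-41887285, plus strand) and Tigar (chr6:127109746-127109765, minus strand) read as follows, with the same use of capitals.
Bbc3 site: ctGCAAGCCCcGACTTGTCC
Aen site: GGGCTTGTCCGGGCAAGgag
Trp53 site: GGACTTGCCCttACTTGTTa
Sesn1 site: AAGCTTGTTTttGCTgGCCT
Tigar site: GGtCTAGCTCtGGCAAGaCT
These 5 genes did not differ alike, since Bbc3 and Aen had log2 fold changes of 0.89 and 0.55, Trp53 and Tigar of 0.09 and -0.01, and Sesn1 of -0.30. The 11 tested p53-driven members with a perfect half-site had a median log2 fold change of 0.55, and the 13 with a window but no half-site had a median of 0.47. Phlda3, Plk2 and Eda2r, which differed more than any of these 8 genes, had no full site with up to 3 mismatches in their windows.

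The surroundings of the sites of Cdkn1a and Ccng1 are given because these genes lie on different sides of the pathway, arrest and feedback. The windows are chr17:29090729-29091028 on the plus strand and chr11:40755237-40755536 on the minus strand, written 5′ to 3′ with all 20 bases of the site in capitals.
Cdkn1a window: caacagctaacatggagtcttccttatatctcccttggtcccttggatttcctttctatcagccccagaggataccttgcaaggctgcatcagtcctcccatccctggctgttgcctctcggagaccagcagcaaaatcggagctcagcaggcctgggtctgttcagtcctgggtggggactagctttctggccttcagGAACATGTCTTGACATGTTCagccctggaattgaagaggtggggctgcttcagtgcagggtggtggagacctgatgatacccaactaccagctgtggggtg
Ccng1 window: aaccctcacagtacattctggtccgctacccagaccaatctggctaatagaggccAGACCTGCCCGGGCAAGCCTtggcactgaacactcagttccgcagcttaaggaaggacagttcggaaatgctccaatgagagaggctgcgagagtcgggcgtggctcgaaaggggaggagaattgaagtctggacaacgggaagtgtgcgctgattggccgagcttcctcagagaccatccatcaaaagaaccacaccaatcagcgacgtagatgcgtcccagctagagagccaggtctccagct

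**Figure D4:**
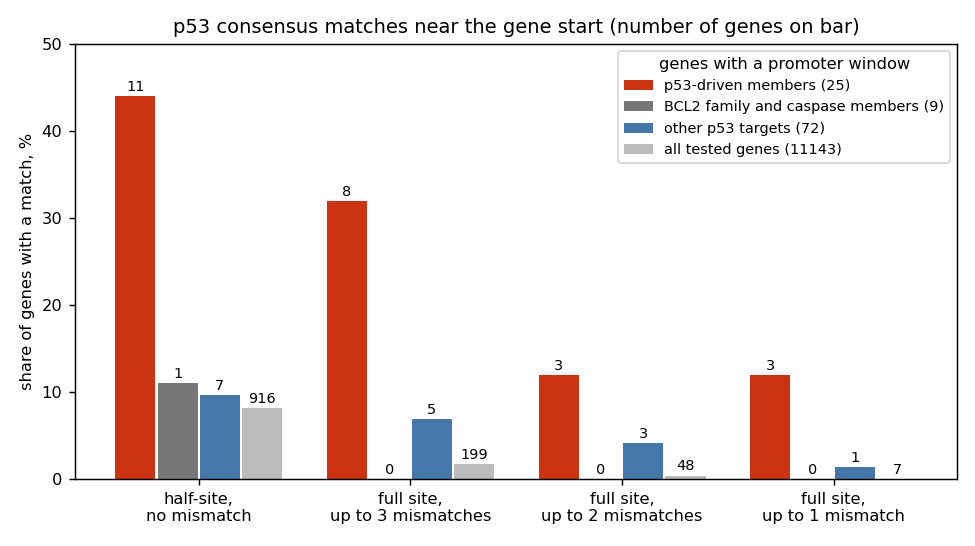
Share of genes (%) with a match to the p53 consensus from 250 bases before to 50 bases after a RefSeq gene start, for a perfect half-site and for full sites with up to 3, 2 or 1 mismatches, with the number of genes on each bar. The p53-driven members hold matches in 44%, 32%, 12% and 12% of genes, and all tested genes in 8.22%, 1.79%, 0.431% and 0.0628%, while the other p53 targets hold them in 9.72%, 6.94%, 4.17% and 1.39%, between both for each kind of match.

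Other genes of the pathway were taken from lists that left out the members. These lists, too, were made with earlier results of these data known, and the genes named are those that changed most, so their p-values, adjusted over all tested genes, are no independent support. Of 79 tested other p53 targets, 53 (67.1%) were called higher and 16 (20.3%) lower in Tnfaip2-/- EBs (median log2 value 0.37), beside 34% and 33.7% of all tested genes. Against the fold of 1.5, 20 (25.3%) were higher and 3 (3.8%) lower, beside 9.05% and 6.63%. Among the called targets with the largest increases were Ephx1, an epoxide hydrolase (log2 3.05, SE 0.104), Sfn, the 14-3-3 sigma protein of G2 arrest (3.02, SE 0.0738), and Lif (2.35, SE 0.125). Those with the largest decreases at 1 CPM or more were Ier5 (-0.83, SE 0.0686), Epha2 (-0.70, SE 0.0332), Dram1 (-0.69, SE 0.179) and Triap1 (-0.52, SE 0.061). Their adjusted p-values in edgeR's quasi-likelihood test with Benjamini-Hochberg adjustment lay between 1.19e-34 and 0.000695. Absence of overlap between genotypes was a condition for naming these 7 genes and is no result. Thbs1, named after its values were seen, had a lower log2 value of -3.09 but a mean under 1 CPM.

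Of 35 tested regulators that act on p53, 17 (48.6%) were called higher and 10 (28.6%) lower, beside 34% and 33.7% of all tested genes, and the median log2 fold change was 0.06. Cdkn2a, whose ARF product inhibits MDM2, rose from 1.85 ± 0.195 to 5.36 ± 0.574 CPM (log2 1.53, SE 0.144). The counts are for the whole gene, and the transcript for ARF was not counted apart. Rffl (0.86, with 30.8% of its exon bases under a gene on the opposite strand), Ppp1r13b (0.78) and Ppp1r13l (0.54) also rose. Daxx (-0.78), Kat2b (-0.58), Kmt5a (-0.49) and Kat5 (-0.40) fell. The adjusted p-values of these 8 regulators lay between 1.15e-22 and 2.38e-10 in edgeR's quasi-likelihood test with Benjamini-Hochberg adjustment.

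Of 28 tested apoptosis genes outside the members, 9 (32.1%) were called higher and 11 (39.3%) lower, which is near the 34% and 33.7% of all tested genes, and the median log2 fold change was -0.03. Bcl2l14 (1.55), Bnip3 (0.61) and Birc3 (0.51) rose, and 46.6% of the 51-base windows of Bnip3 are shared with other genes. Cflar, the inhibitor of caspase 8 (-0.72), the BAX-like effector gene Bok (-0.72) and Htra2 (-0.57, with 43.7% of its exon bases under a gene on the opposite strand) fell. In edgeR's quasi-likelihood test with Benjamini-Hochberg adjustment, these 6 genes had adjusted p-values between 7.38e-25 and 0.000169.

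The DREAM complex represses cell cycle genes when p21 is induced, and 24 of its targets were listed. Of these, 13 (54.2%) were called higher and 10 (41.7%) lower, beside 34% and 33.7% of all tested genes, and the median log2 fold change was 0.14. Kif23 (1.06), Cenpf (0.72), Nusap1 (0.52) and Top2a (0.52) rose, whereas Rrm2 (-0.44), Cenpa (-0.41), Ccna2 (-0.36) and Mybl2 (-0.33) fell, with adjusted p-values between 6.07e-32 and 4.25e-16 in edgeR's quasi-likelihood test with Benjamini-Hochberg adjustment.

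**Figure D5:**
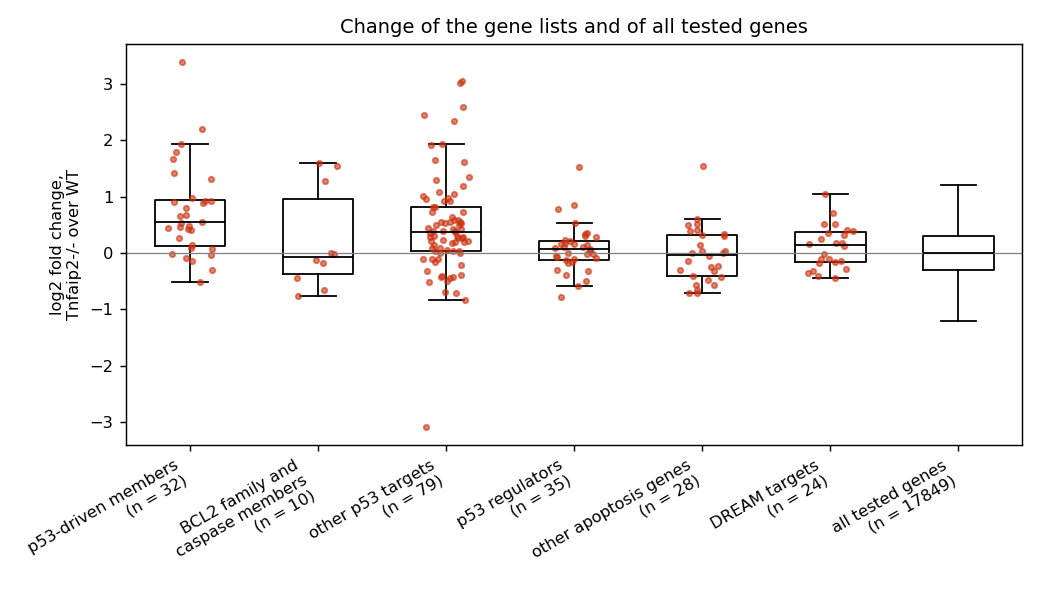
Log2 fold change (Tnfaip2-/- over WT) of the tested genes of each list, with each gene as a point, the box from the lower to the upper quartile, the median as a line and whiskers to the last value within 1.5 box lengths, and all 17849 tested genes as a box alone. The medians are 0.55 for p53-driven members, -0.07 for BCL2 family and caspase members and 0.37 for other p53 targets. Those of the regulators, other apoptosis genes and DREAM targets lie within 0.14 of 0.

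Markers of cell state differed between the genotypes alongside the members. Counts of called markers stand beside 34% of all tested genes called higher and 33.7% called lower. The 10 pluripotency markers, of which Dppa5a was the most abundant over the 6 samples, as is each gene so named for the next lists, summed to 3879, 3832 and 3903 CPM in WT EBs and 3131, 3135 and 3110 CPM in Tnfaip2-/- EBs, with 3 called higher and 7 lower. Dppa5a and Pou5f1 (log2 -0.86, SE 0.0237) had the largest decreases in CPM, whereas Zfp42 (0.90, SE 0.0265), Nanog (0.26, SE 0.0271) and Sox2 (0.23, SE 0.0254) were higher in each Tnfaip2-/- sample. The 6 markers of primed epiblast and neural ectoderm (Dnmt3b) summed to 991.7, 990.7 and 982 CPM in WT EBs and 494.6, 486.4 and 486.5 CPM in Tnfaip2-/- EBs, with 5 called lower. The 8 markers of primitive streak, mesoderm and definitive endoderm (Eomes) summed to 81.36, 79.63 and 79.47 CPM in WT EBs and 25.35, 23.01 and 27.42 CPM in Tnfaip2-/- EBs, with 7 called lower and 1 higher. T, the brachyury gene and the most abundant of them in WT EBs, was at 34.2, 32.7 and 36.9 CPM there and at 0.22, 0.137 and 0.0451 CPM in Tnfaip2-/- EBs. The 8 primitive endoderm markers (Lama1) summed to 107.6, 106.6 and 105.7 CPM in WT EBs and 141.2, 141.5 and 142.4 CPM in Tnfaip2-/- EBs, with 2 called higher and 4 lower. Without Lama1 the other 7 summed to 78.63, 76.99 and 77.93 CPM in WT EBs and 66.15, 65.66 and 66.73 CPM in Tnfaip2-/- EBs, so the higher sum rests on Lama1, and Dab2, Afp, Ttr and Amn were lower. The 8 fibroblast markers (Pdgfrb) summed to 13.06, 13.8 and 12.81 CPM in WT EBs and 11.53, 11.41 and 11.86 CPM in Tnfaip2-/- EBs, and Lum had at most 3 counts in every sample. Without Pdgfrb, which was exceeded by Thy1 in WT EBs, they summed to 8.648, 10 and 8.64 CPM in WT EBs and 5.809, 6.301 and 6.854 CPM in Tnfaip2-/- EBs. The 6 blood markers (Cd68) summed to 5.604, 7.369 and 6.682 CPM in WT EBs and 8.01, 9.314 and 9.83 CPM in Tnfaip2-/- EBs, and Ptprc, Hbb-bs, Lyz2 and Tyrobp had at most 3 counts in every sample. The part of these differences in cell state in the members' values was not tested.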

How the data were processed

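Polyadenylated RNA of 6 EB samples was sequenced with a library kit that does not keep strand. The authors deposited gene counts. Per the study's methods and the submitters' processing notes, reads were trimmed with SGA preprocess 0.10.13 and aligned with TopHat2 2.1.0 to GRCm38 with Ensembl release 90, and reads with a single genomic position were counted with featureCounts 1.5.0. The strand setting is not given in the sources used here, and the methods and the notes name different versions of bcl2fastq. The study tested genes with DESeq2. From the counts, edgeR 4.0.16 (R 4.3.3) fitted genotype alone to all 6 samples, with TMM factors, filterByExpr (minimum count 10, total 15), a robust quasi-likelihood test, a second test against a fold change of 1.5 and Benjamini-Hochberg adjustment over 17849 genes at 0.05. The procedure was tested on simulated data, in which far fewer genes changed than were called here. CPM used TMM-scaled library sizes over tested genes. RPKM used union exon lengths of GENCODE M21 (GRCm38), in which 52489 of 52636 gene IDs matched, and which also gave exon overlap and 51-base windows shared between genes. Total counts per sample ran from 21765931 to 23804489, and the biological coefficient of variation was 0.0215. Intervals on counts cover counting error only.

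The members and the lists of other targets, regulators, apoptosis genes, DREAM targets and cell markers were chosen with earlier results of these data known. Every member is named or counted. From each other list, the text names up to 4 called genes per direction, those that changed most while averaging 1 CPM or more and showing no overlap between genotypes; a few of these are not reported here. Sites of the p53 consensus were planned for a wider region around each start but were searched only in the RefSeq promoter windows (GRCm38.p6), since a genome sequence was not used here. Alternatives were DESeq2 1.42.0, upper-quartile normalization, no filter, a filter of 1 CPM in 3 samples, the legacy edgeR fit, a replicate block, leaving out each sample, and other numbers of mismatches.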

Additional observations from a re-analysis of the deposited data

How the results depend on the processing

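Of 503 values of single members under the alternatives, 474 had the same sign and the same call, 16 lost their call, 3 gained one and 10 changed sign. The sign changes concerned genes that were not called. Bcl2l1 was at -0.00347 with DESeq2, -0.01 with no filter on low counts and between -0.03 and 0.04 when 1 sample was left out. Tigar was at 0.01 with upper-quartile normalization and between -0.06 and 0.01 when 1 sample was left out. Casp9 was at 0.02 with upper-quartile normalization and between -0.08 and 0.06 when 1 sample was left out. DESeq2 called 10261 genes in all, 1723 genes against a fold of 1.5 where edgeR called 2798, and 5 members lower where edgeR called 8. The median log2 fold change of p53-driven members was 0.57 with upper-quartile normalization, which moved the median of all genes from 0.003 to 0.029. That of BCL2 family and caspase members was -0.04 with upper-quartile normalization and -0.00421 with the stricter filter. The cause of these shifts was not tested.

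Leaving out 1 sample at a time gave 11537 to 11744 called genes, 2686 to 2757 against the fold of 1.5, 26 to 29 members higher, 6 to 8 members lower, and medians of 0.54 to 0.56 for p53-driven members and -0.11 to -0.03 for BCL2 family and caspase members. For the other lists it gave 50 to 53 other targets higher and 15 to 16 lower, 16 to 17 regulators higher and 9 to 12 lower, and 8 to 9 other apoptosis genes higher and 11 to 12 lower, while the DREAM counts stayed at 13 and 10. The replicate numbers did not pair the samples, since the deviations of samples with the same number correlated at -0.0418, -0.0416 and -0.0457, below those with other numbers. With the replicate block 11841 genes were called, 28 members were higher and 8 lower. The share of members with a full p53 site was 8.82% with at most 2 mismatches and with at most 1, and 23.5% with at most 3, which was added after the data were seen. The planned wider windows around the starts were not run, since a genome sequence was not used here. Depth limits Fas, Bcl2 and Tnfaip2, whose counts were 19 or fewer in every sample.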

Other observations

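Genes were also grouped by the p53 consensus in their promoter window alone, a grouping made after the members' sites had been seen. Of 11143 tested genes with a window, 37.6% were called higher and 35.8% lower in Tnfaip2-/- EBs (median log2 value 0.02). Among the 48 genes with a full site of at most 2 mismatches, 27 (56.2%) were higher and 11 (22.9%) were lower, with a median of 0.25. Leaving out the members and the listed other targets, 42 genes remained, of which 22 (52.4%) were higher and 11 (26.2%) were lower, with a median of 0.20. With at most 3 mismatches, the genes outside those lists numbered 186, of which 47.3% were higher and 30.6% lower. With a perfect half-site they numbered 897, of which 41.6% were higher and 33.2% lower. These shares are a description, and whether base composition or gene type moves with them was not tested.

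Besides Cdkn1a, Ccng1 and Gtse1, 4 tested genes had a full site with at most 1 mismatch. Calhm2 (log2 1.31, SE 0.165), Sptbn4 (0.80, SE 0.0834) and Rps27l (0.42, SE 0.027), a known p53 target, were higher in Tnfaip2-/- EBs, and Mthfd1, an enzyme of folate metabolism (-0.39, SE 0.0252), was lower. Their adjusted p-values in edgeR's quasi-likelihood test with Benjamini-Hochberg adjustment lay between 1.38e-18 and 2.06e-09.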
